A study of Homo sapiens with 2 samples.

Results

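Chemokine ligands are small secreted or cell-surface proteins that direct the movement of leukocytes, and 10 genes for them were followed in H1944, an established human lung adenocarcinoma line. The 10 were CXCL1, CXCL2, CXCL3, CXCL5, CXCL6, CXCL8, CXCL16, CX3CL1, CCL5 and CCL20, out of 46 chemokine ligand genes and 59125 rows in the count tables. They were selected on their measured levels in these same libraries, so their presence among expressed genes and the overall size of their differences are a description and not a finding. Levels are given as CPM, counts scaled to 1000000 per library. A row passed the level filter when its mean over both libraries reached 1 CPM, as 14612 rows did. Of the 10 ligands, 9 passed it. CXCL6 lay just below it at a mean of 0.892 CPM, and CCL26, which lay above it at 2.18 CPM, was not among the 10.

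The study examined which transcripts differ when the deubiquitinase USP12 is depleted in lung cancer cells. It sequenced mRNA from H1944 cells with a control short hairpin RNA (shCON) and from H1944 cells with a short hairpin RNA against USP12 (shUSP12), at 1 library per group. The labels name no other agent, time or stimulus. Hairpins were delivered with lentivirus, the study describes more than 1 target sequence in USP12, and the labels do not say which of them this library carries or whether the cells were a clone or a pool. The header of the control column names RFP, and the methods give GFP as the target of the control hairpin.

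Depth was 18249112 counts for shCON and 17475359 for shUSP12. With no biological replicate, no difference has a replicate check, no p-value was computed, and each statement compares these 2 libraries. The 95% intervals are exact binomial ones and cover counting error only. USP12, the targeted gene, was read 711 times in shCON and 219 times in shUSP12, and its log2 ratio of −1.76 (95% interval −1.99 to −1.55) went the way of the labels. In bulk RNA, fewer cells that make a transcript and less of it per cell cannot be told apart. The libraries also stood apart in ways that the hairpin label does not name. A total of 119 rows reached 50 counts in shUSP12 while holding no more than 3 in shCON, against 1 row the other way, and CX3CL1 was the only one of the 10 ligands among the 119. Of those rows, 7 lay on chromosome Y. Another was NKX2-1, a lung lineage factor, with 0 counts in shCON and 312 in shUSP12. Among 10 epithelial markers, 7 passed the filter, and 4 of the 7 exceeded 2-fold toward shUSP12, beside 6.48% of all rows. The 4 included EPCAM (115 and 1566 counts) and KRT19 (32 and 4452 counts), whereas KRT8 (85596 and 62180 counts) was lower. NKX2-1, also among the 4, passed the filter through shUSP12 alone, so that it had to differ. The summed level of the 10 epithelial markers was 6441 CPM in shCON and 5021 CPM in shUSP12, and the surfactant genes SFTPB (0 counts in both) and SFTPC (0 and 2 counts) were absent or nearly so from both libraries. Whether both cultures hold the same cells apart from the hairpin was not tested, so that each ratio below compares 2 cultures in which the hairpin cannot be told apart from such differences. The part of these differences in the results on the ligands was not tested either, and with 1 library per group no value could be given without either library.

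The chemokine families are named after the spacing of conserved cysteines near the amino terminus. CXC ligands that carry a glutamate-leucine-arginine motif before those cysteines attract neutrophils through the receptors CXCR1 and CXCR2. Most of their genes stand close together on chromosome 4, have short transcripts that are rapidly degraded, and are classical targets of the transcription factor NF-κB. In lung tumours such ligands are known as a link between tumour cells and infiltrating neutrophils. The other ligands here act on other cells. CXCL16 and CX3CL1 are made as membrane-bound proteins that can be shed, CCL5 attracts T cells and monocytes, and CCL20 attracts cells that carry CCR6.

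Promoter sequences were read from the RefSeq table for GRCh38.p14, which held 7 of the 10 genes. CXCL16, CX3CL1 and CCL5 were not read. The stretches below run 5′ to 3′ on the strand of the gene, from 120 bases before its start to 10 bases after, and are shown because they set out the elements shared by ligands whose level differed and by CXCL5, whose level hardly did. Capitals mark matches on either strand to GGNNNTTCC, the core of an NF-κB site.
CXCL1 (chr4:73869273-73869402, plus strand): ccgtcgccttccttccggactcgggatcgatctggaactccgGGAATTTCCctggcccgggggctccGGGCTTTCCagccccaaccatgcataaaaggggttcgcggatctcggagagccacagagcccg
CXCL2 (chr4:74099186-74099315, minus strand): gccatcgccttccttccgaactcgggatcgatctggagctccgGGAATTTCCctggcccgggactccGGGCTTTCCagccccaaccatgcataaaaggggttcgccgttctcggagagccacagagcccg
CXCL3 (chr4:74038680-74038809, minus strand): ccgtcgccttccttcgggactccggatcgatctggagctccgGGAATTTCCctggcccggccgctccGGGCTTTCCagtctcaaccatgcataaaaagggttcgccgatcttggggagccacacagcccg
CXCL5 (chr4:73998668-73998797, minus strand): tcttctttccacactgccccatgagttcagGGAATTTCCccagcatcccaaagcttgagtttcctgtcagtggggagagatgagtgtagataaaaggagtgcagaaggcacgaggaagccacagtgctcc
CXCL6 (chr4:73836558-73836687, plus strand): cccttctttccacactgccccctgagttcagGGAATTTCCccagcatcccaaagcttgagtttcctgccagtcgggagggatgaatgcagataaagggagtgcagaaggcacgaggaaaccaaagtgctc
CXCL8 (chr4:73740449-73740578, plus strand): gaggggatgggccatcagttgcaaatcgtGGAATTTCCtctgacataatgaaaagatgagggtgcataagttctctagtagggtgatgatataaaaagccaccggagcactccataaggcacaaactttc
CCL20 (chr2:227813722-227813851, plus strand): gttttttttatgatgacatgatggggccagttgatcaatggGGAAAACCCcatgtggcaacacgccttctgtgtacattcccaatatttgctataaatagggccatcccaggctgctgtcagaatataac

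The same 9 letters, GGAATTTCC, stood in the promoters of all 6 neutrophil-attracting ligands. The first base of the match lay at −78 in CXCL1, −77 in CXCL2 and −78 in CXCL3, counted from the gene start. It lay at −90 in CXCL5, −89 in CXCL6 and −91 in CXCL8. A further match, GGGCTTTCC, was found at −53 in CXCL1, CXCL2 and CXCL3 and in none of the other 4 promoters. In CCL20 the match lay on the opposite strand and reads GGAAAACCC on the printed strand, at −79. The core pattern was searched over all 300 bases (250 before and 50 after the start, both strands) and was held by 7042 of 35116 promoters, or 20.1%. The longer NF-κB consensus overlaps the core and was held by 5.91% of all promoters and by 6 of the 7 read here, CXCL8 being without it. Of other motifs, the AP-1 motif TGANTCA (7.71% of all promoters) was found in CXCL8 alone, at −137. TTNNGNAA, a C/EBP motif held by 36.8% of all promoters, was found in CXCL2 alone. TATAAA (11.5% of all promoters) was found at −31 in CXCL8 and at −29 in CCL20. These are matches of letters and not measured sites.

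The promoters fell into pairs and a trio of near relatives. Over 300 bases, CXCL1 and CXCL3 were 84.7% identical, CXCL1 and CXCL2 80.0%, CXCL2 and CXCL3 78.7%, and CXCL5 and CXCL6 83.7%. All other pairs had between 54.7% and 64.7% identical bases. Relatedness also bears on the counts, since fragments shared by several genes cannot be assigned to one of them. Of the 50-base windows of the canonical transcript, read on either strand, 5.33% in CXCL1, 10.1% in CXCL2 and 5.26% in CXCL3 also occurred in another member of the trio, whereas at 100 bases none did. CXCL5 shared 12.7% of its 50-base windows and 6.03% of its 100-base windows, the latter all with 1 other gene, ENSG00000287037. Because windows were matched on either strand and the strand setting of the counting is not given, reads from them cannot be told apart. CCL5 shared 18.5% of its 50-base windows with transcripts of 721 other genes and 7.92% of its 100-base windows with those of 21. CXCL16 shared 4.62% of its 50-base windows with 30 genes and none at 100 bases. CXCL6, CXCL8, CX3CL1 and CCL20 shared none at either length.

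The baseline was examined next, as CPM per 1000 bases of the canonical transcript so that genes could be set side by side. CXCL5 was by far the most abundant ligand in shCON at 114 CPM per kb, which was 64.9% of the sum over the 10 ligands. It stood 7.42 times (95% interval 6.82 to 8.08) above the next gene. That gene was CXCL16 at 15.3 CPM per kb, which could not be separated from CXCL1 at 15.2 by their counts (ratio 1.01, 95% interval 0.879 to 1.16). CCL5 followed at 12.5, CXCL2 at 8.90, CXCL3 at 5.44 and CXCL8 at 2.55 CPM per kb. At the foot of the order stood CCL20 at 1.03 and CXCL6 at 0.485, whose counts did not separate them either, and CX3CL1 at 0.0524 CPM per kb. The neutrophil-attracting ligands thus ranged from the first place to the ninth, and the 4 other ligands from the second to the last.

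In shUSP12 the order was different below CXCL5. CXCL5 stood at 118 CPM per kb and 54.7% of the sum, 3.22 times (95% interval 2.99 to 3.48) above CXCL1. CXCL1 was at 36.5 and CXCL2 at 17.3 CPM per kb, ahead of CCL5 at 13.5 and CXCL16 at 9.90. CXCL8 at 8.29 and CXCL3 at 8.19 could not be told apart (ratio 1.01, 95% interval 0.827 to 1.24). CCL20 at 2.23 CPM per kb came next, then CX3CL1 at 0.965 and CXCL6 at 0.676, which counting error did not separate. CXCL16 went from the second place to the fifth, and CXCL8 from the seventh to the sixth. With the length of all exons in place of the canonical transcript, CXCL1, CXCL16 and CCL5 in shCON stood so close that no neighbouring pair of them was separated.

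**Figure D1:**
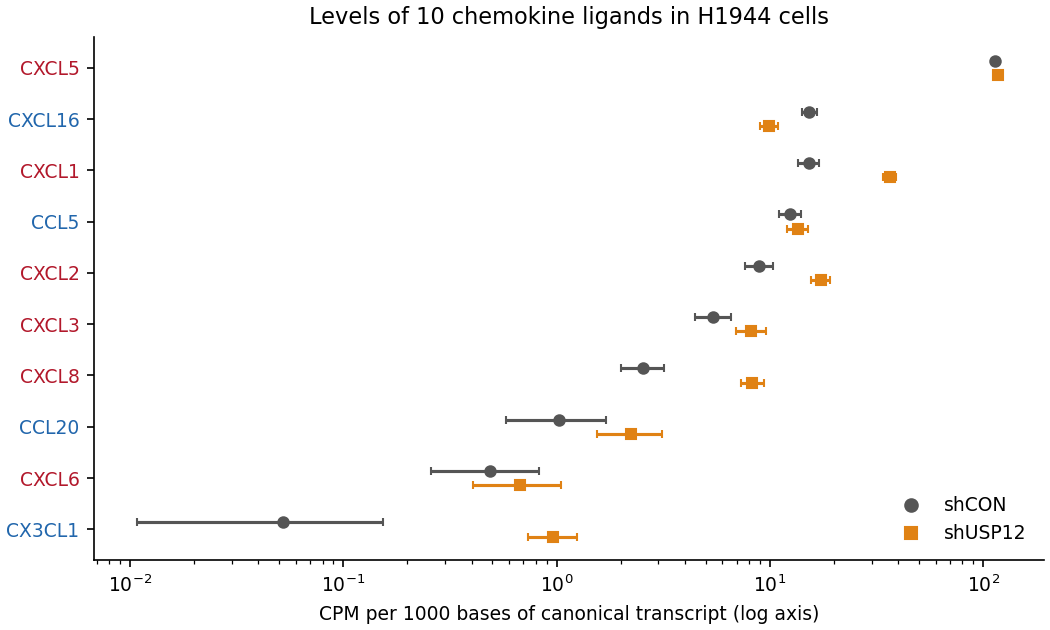
Level of each ligand in shCON and shUSP12 as CPM per 1000 bases of the canonical transcript, on a log axis, with 95% counting intervals and 1 library per group. CXCL5 lies at the top in both libraries, at 114 and 118 CPM per kb, and CX3CL1 at the foot in shCON.

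The neutrophil-attracting ligands were taken first. CXCL8, or interleukin-8, acts on both CXCR1 and CXCR2 and is the best known neutrophil attractant. It had 73 counts in shCON and 249 in shUSP12, or 4.19 and 13.6 CPM, and its log2 ratio of shUSP12 over shCON was 1.68 (95% interval 1.32 to 2.10). It was 3.25-fold higher in shUSP12, the largest ratio of the 6 ligands of this kind, and stood at place 515 from the top among the 14612 rows.

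CXCL1, CXCL2 and CXCL3 are close paralogues that act mainly on CXCR2. CXCL1 had 311 counts in shCON and 783 in shUSP12, or 17.8 and 42.8 CPM, with a log2 ratio of 1.26 (95% interval 1.07 to 1.46). CXCL2 had 173 and 353 counts, or 9.93 and 19.3 CPM, with a log2 ratio of 0.95 (95% interval 0.69 to 1.23), just short of 2-fold. CXCL3 had 102 and 161 counts, or 5.85 and 8.80 CPM, and a log2 ratio of 0.58 (95% interval 0.22 to 0.96). All 3 were thus higher in shUSP12 by more than counting error. Summed over the trio, which takes up fragments misplaced among its members, counts were 586 in shCON and 1297 in shUSP12, which is 1.07 on the log2 scale (95% interval 0.93 to 1.22).

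CXCL5 and CXCL6 form another pair of paralogues. CXCL5 had 4829 counts in shCON and 5239 in shUSP12, or 277 and 286 CPM. Its log2 ratio was 0.05 (95% interval −0.01 to 0.10), so the most abundant ligand differed by 1.03-fold between the libraries, within counting error, although scaling to total counts alone gave 0.18 (95% interval 0.12 to 0.24). CXCL6 was read only 13 times in shCON and 19 times in shUSP12, and its log2 ratio of 0.43 (95% interval −0.62 to 1.62) leaves both directions possible at this depth.

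Of the 4 other ligands, CXCL16 was the only member of the 10 with a lower level in shUSP12. CXCL16, the ligand of CXCR6 and a scavenger receptor for oxidised lipoprotein, had 621 counts in shCON and 421 in shUSP12, or 35.6 and 23.0 CPM. Its log2 ratio was −0.63 (95% interval −0.81 to −0.45), which is less than 2-fold. CCL5 had 283 and 321 counts, or 16.2 and 17.5 CPM, and a log2 ratio of 0.11 (95% interval −0.12 to 0.35). The level of CCL5 was thus within counting error in the 2 libraries, whereas scaling to total counts alone put it at 0.24 (95% interval 0.01 to 0.48).

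CX3CL1, also called fractalkine, tethers cells that carry CX3CR1. It was read 3 times in shCON, at the limit of detection set at 3 counts, and 58 times in shUSP12, or 0.172 and 3.17 CPM. The ratio was 18.4 (95% counting interval 5.997 to 91.9), and CX3CL1 passed the level filter through shUSP12 alone, so that it had to differ. CCL20 had 15 counts in shCON and 34 in shUSP12, or 0.861 and 1.86 CPM, with a log2 ratio of 1.03 (95% interval 0.19 to 2.09). CCL20 too lay below 1 CPM in shCON, and its interval reaches from a small to a more than 4-fold excess.

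**Figure D2:**
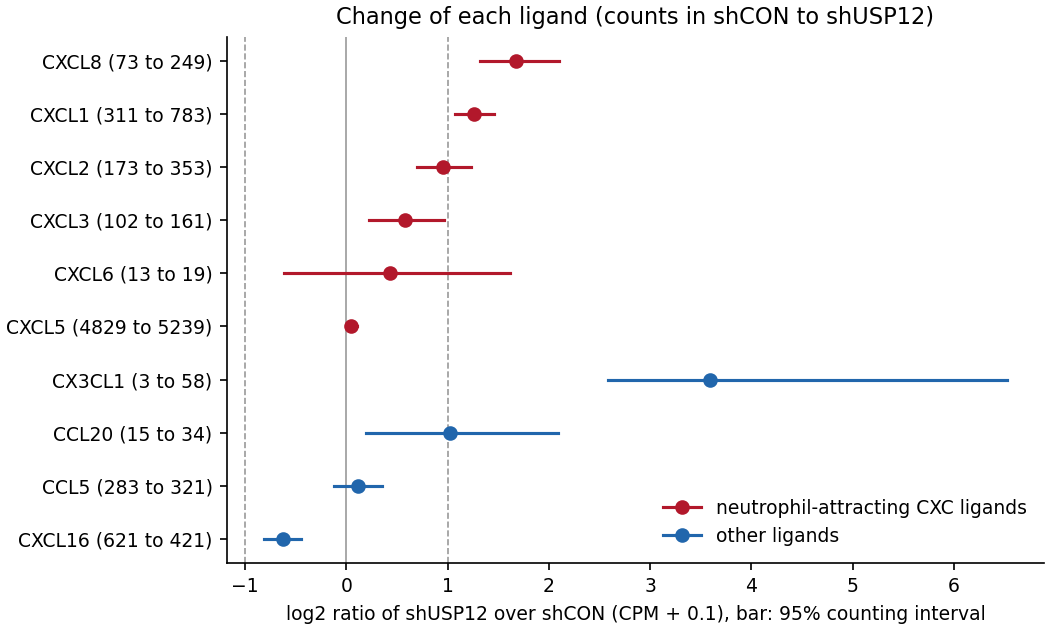
Log2 ratio of shUSP12 over shCON for each ligand with its 95% counting interval, with the neutrophil-attracting ligands and the other ligands in separate colours and 2-fold marked by broken lines. CXCL8, CXCL1, CX3CL1 and CCL20 lie beyond 2-fold, CXCL5 and CCL5 lie at 0.05 and 0.11, and CXCL16 lies below 0.

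Among the 9 ligands over the level filter, 4 were at least 2-fold higher in shUSP12 (CXCL8, CXCL1, CX3CL1 and CCL20), while 6.48% of all 14612 rows were. None of the 9 was at least 2-fold lower, where 3.01% of all rows were. As the ligands had been selected on these values, nothing is read from the comparison. Low rows reach 2-fold more often, so the same share was taken by level. It was 16.8% of rows with a mean from 1 to under 5 CPM, where CX3CL1 and CCL20 lie. It was 6.49% from 5 to under 20 CPM, the range of CXCL2, CXCL3, CXCL8 and CCL5. It was 1.95% from 20 to under 100 CPM, the range of CXCL1 and CXCL16, and 0.899% from 100 CPM, where CXCL5 lies. The median log2 ratio of all 14612 rows was −0.01, and 48.9% of them lay above 0.

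**Figure D3:**
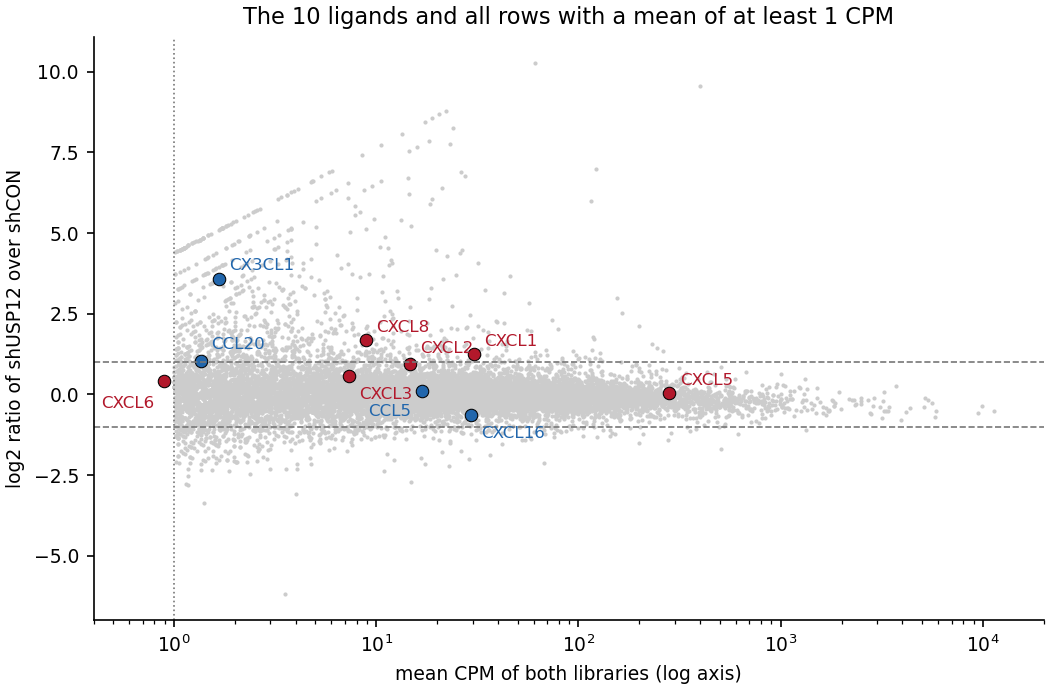
Log2 ratio of shUSP12 over shCON against the mean CPM of both libraries (log axis) for all 14612 rows over the level filter in grey and for the 10 ligands in colour, with CXCL6 left of the dotted line because its mean is 0.892 CPM. CXCL1 and CXCL8 lie above the body of rows of like level, and CXCL5 lies inside it. Some rows, not only low ones, reach higher ratios than any ligand, such as KRT19 at a mean of 123 CPM (6.97).

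The sum of the 6 neutrophil-attracting ligands hid most of these differences, because CXCL5 made up the bulk of it. The 6 together had 5501 counts in shCON and 6804 in shUSP12, or 316 and 372 CPM, with a log2 ratio of 0.24 (95% interval 0.19 to 0.29) and a median over the 6 of 0.77. Without CXCL5 the sum was 672 counts and 1565 counts, or 38.6 and 85.5 CPM, a log2 ratio of 1.15 (95% interval 1.02 to 1.28). CXCL5 therefore decides the size of the summed difference. The 4 other ligands had 922 and 834 counts, or 52.9 and 45.6 CPM, a log2 ratio of −0.21 (95% interval −0.35 to −0.08). Their median was 0.57 and differs in sign from their sum, which CXCL16 leads. Without CXCL16 the remaining 3 had 301 and 413 counts and a log2 ratio of 0.38 (95% interval 0.17 to 0.61).

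The 2 groups of ligands were then set against each other within each library, which needs no scaling between libraries. For every 100 counts of the 4 other ligands there were 597 counts of the neutrophil-attracting ligands in shCON and 816 in shUSP12, a log2 ratio of ratios of 0.45 (95% interval 0.31 to 0.60). With CXCL5 left out, the numbers were 72.9 and 188, a log2 ratio of ratios of 1.36 (95% interval 1.17 to 1.56). Leaving out CXCL16 as well as CXCL5 gave 0.76 (95% interval 0.51 to 1.02), so that CXCL16 also contributes to the size of the contrast. In each of these settings the balance of reads lay further toward the neutrophil-attracting ligands in shUSP12. Leaving out CXCL16 alone put the point values in the other order. The 3 remaining other ligands then had a log2 ratio of 0.38 (95% interval 0.17 to 0.61). That of the 6 neutrophil-attracting ligands was 0.24 (95% interval 0.19 to 0.29), and the intervals overlapped. No interval was taken for this contrast, so its direction without CXCL16 is not settled. Whether the contrast shows a direction thus depends on which ligands are counted. The values of single genes did not fall into 2 separate groups. CXCL5 at 0.05 lay beside CCL5 at 0.11, and the ratio of CCL20 was not separated from those of CXCL1, CXCL2, CXCL3, CXCL6 and CXCL8.

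The make-up of each group showed the same in shares of its counts. CXCL5 took 87.8% of the neutrophil-attracting counts in shCON (95% interval 86.9 to 88.6) and 77.0% in shUSP12 (95% interval 75.98 to 77.99). CXCL1 took 5.65% and 11.5%. CXCL8 took 1.33% (95% interval 1.04 to 1.67) and 3.66% (95% interval 3.23 to 4.13). The shares of CXCL1 and CXCL8 were thus larger in shUSP12 and that of CXCL5 smaller. CXCL2 went from 3.14% to 5.19%, while the intervals of CXCL3 (1.85% and 2.37%) and CXCL6 (0.236% and 0.279%) overlapped between the libraries. Among the 4 other ligands, CXCL16 took 67.4% of counts in shCON and 50.5% in shUSP12, CCL5 30.7% and 38.5%, CCL20 1.63% and 4.08%, and CX3CL1 0.325% and 6.95%.

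Members were also compared in pairs, 45 in all, and in 31 the interval of the ratio of ratios did not hold 0. All 9 pairs with CX3CL1 are among the 31, and CX3CL1 had passed the filter through shUSP12 alone. Without them it was 22 of 36. CXCL1 and CXCL2 did not differ beyond counting error in how far they were higher (0.30, 95% interval −0.03 to 0.64). Against CXCL5, there were 6.44 counts of CXCL1 per 100 counts of CXCL5 in shCON and 14.9 in shUSP12, a log2 ratio of ratios of 1.21 (95% interval 1.01 to 1.42). The ratio of CXCL8 exceeded that of CXCL1, with 426 counts of CXCL1 per 100 of CXCL8 in shCON and 314 in shUSP12 (−0.44, 95% interval −0.88 to −0.01). CXCL8 and CXCL5, both carrying GGAATTTCC at −91 and −90, differed in their ratios, by −1.65 for CXCL5 over CXCL8 (95% interval −2.05 to −1.27). CXCL5 and CCL5 did not differ beyond counting error (−0.06, 95% interval −0.31 to 0.18).

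The 6 neutrophil-attracting genes lie within the same stretch of chromosome 4, and their neighbours were read too. Other ligand genes stand among them, PF4V1 between CXCL6 and CXCL1, and PF4 and PPBP between CXCL1 and CXCL5. On GRCh38, CXCL8 (ENSG00000169429) spans chr4:73740519-73743716 and CXCL2 (ENSG00000081041) spans chr4:74097040-74099196. Measured from the start of CXCL8, CXCL6 begins at 96.1 kb, CXCL1 at 129 kb, CXCL5 at 258 kb, CXCL3 at 298 kb and CXCL2 at 359 kb. CXCL8, CXCL6 and CXCL1 are on the plus strand, and CXCL5, CXCL3 and CXCL2 on the minus strand. The ratios did not follow the order along the chromosome, as CXCL5 at 0.05 lies between CXCL1 at 1.26 and CXCL3 at 0.58.

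Of 19 genes in and beside the cluster, 12 passed the level filter. Of these, 5 are ligands followed here, selected on these same values (CXCL8, CXCL1, CXCL2, CXCL3 and CXCL5). The other 7 all had log2 ratios above 0, where 48.9% of all rows did, and their median was 0.78 beside −0.01 for all rows. Of the 7, BTC alone was at least 2-fold higher, beside 6.48% of all rows. Beyond CXCL2 lie growth factors that activate the epidermal growth factor receptor. BTC, at 1054 kb, had 68 counts in shCON and 172 in shUSP12 (1.25), EREG had 657 and 1219 (0.82), and AREG had 694 and 1297 (0.83). The non-chemokine neighbours were thus also higher in shUSP12, at log2 ratios from 0.82 to 1.25 for these 3. MTHFD2L, which encodes a mitochondrial folate enzyme and starts next to CXCL2, had 77 and 140 counts (0.78). The intervals of RASSF6 (120 and 145 counts, 0.20) and PARM1 (108 and 135 counts, 0.25) held 0, and AFP had 62 and 92 counts (0.49). The platelet chemokines of the same cluster were scarce, with 4 and 24 counts for PF4 and 6 and 0 counts for PPBP.

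**Figure D4:**
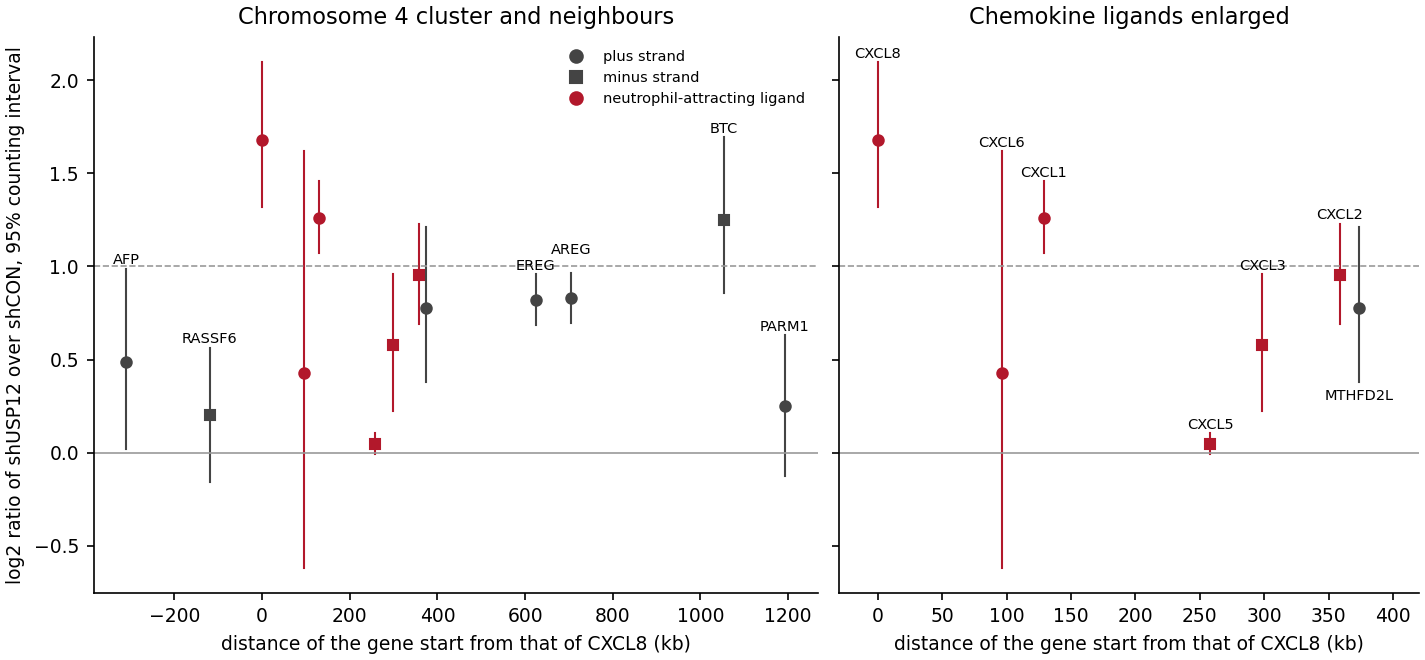
Log2 ratio of shUSP12 over shCON, with 95% counting intervals, for the ligands and their neighbours on chromosome 4 against the distance of the gene start from that of CXCL8 in kb, with the ligands enlarged on the right. CXCL8, CXCL1 and BTC lie above 2-fold, and CXCL5, in the middle of the cluster, lies at 0.05.

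Most of the chemokine family was not detected in H1944 at this depth. Of the 36 ligand genes not followed here, 21 had 0 counts in both libraries and 25 had at most 3 in both. CCL26, a ligand of CCR3, had 32 and 46 counts. Next below the level filter came CXCL6, then CCL28 with 1 count in shCON and 29 in shUSP12, and PF4. CCL2, the monocyte attractant, had 4 counts and 1 count, too few to give a direction. The interferon-induced ligands CXCL10 (5 and 15 counts) and CXCL11 (10 and 11 counts) were also scarce.

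Transcripts of most receptors of these ligands were not detected in the same cells. CXCR1, CXCR2, CCR2 and CCR6 had 0 counts in both libraries, where the limit of 3 counts equals 0.172 CPM in shCON and 0.164 CPM in shUSP12. CXCR6, the receptor of CXCL16, had 13 counts in shCON and 22 in shUSP12, and CX3CR1 had 6 counts and 1 count. Of 23 receptor genes, 4 passed the filter, 0 with a 2-fold higher level and 2 with a 2-fold lower level in shUSP12, beside 6.48% and 3.01% of all rows. These were ACKR3, an atypical receptor that scavenges CXCL12, with 1472 and 592 counts (−1.38), and CCR7, a homing receptor of lymphocytes, with 44 and 18 counts (−1.28). CCR7, at 2.52 CPM in shCON and 0.984 CPM in shUSP12, passed the filter through shCON. CCR3 had 203 and 186 counts and CCR1 had 36 and 49.

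Of 12 genes for the processing of ligands, 8 passed the filter and none was 2-fold higher or lower. ADAM10 and ADAM17, which shed CXCL16 and CX3CL1 from the cell surface, had log2 ratios of 0.20 and 0.01. CTSB, a lysosomal protease, had 13904 counts in shCON and 14892 in shUSP12. The median of the 8 was −0.24. Of the matrix metalloproteinases over the filter, MMP2 stood at −0.80, MMP7 at −0.56 and MMP14 at −0.48, all lower in shUSP12 within 2-fold. Of their inhibitors, TIMP3 stood at −0.48 and TIMP1 at 0.03. MMP1 (3 and 22 counts) and MMP9 (6 and 16 counts) lay below the filter and had more counts in shUSP12.

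The core of the NF-κB pathway lay close to the median of all rows. All 20 listed genes passed the filter, none was 2-fold higher or lower, and their median log2 ratio was −0.05. RELA, the main activating subunit, stood at 0.04, NFKB1 at −0.25 and NFKB2 at −0.28. NFKBIA, an inhibitor that is itself an NF-κB target, stood at 0.18. Another target and brake of the pathway, TNFAIP3, stood at 0.08. The larger ratios above 0 were those of REL, with 94 and 162 counts (0.70), and NFKBIZ, a nuclear cofactor, with 320 and 523 counts (0.64). Lowest in shUSP12 relative to shCON were BCL3 (−0.43), NFKBIB (−0.41), TRAF2 (−0.41) and RELB (−0.35). Of the 20 genes, 9 lay above 0, beside 48.9% of all rows. PPM1B, a phosphatase that acts on the kinases of the pathway, had 118 and 168 counts (0.43).

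Chemokine transcripts of this kind are short-lived, so genes of mRNA decay were read as well. All 12 passed the filter, none was 2-fold higher or lower, and the median was −0.02. ZFP36, which binds AU-rich elements, stood at 0.26, and ZC3H12A, an endonuclease that cuts inflammatory transcripts, at 0.16.

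Among 20 cytokines and receptors known to induce these ligands, 12 passed the filter, 2 were at least 2-fold higher, none was 2-fold lower, and the median was 0.06. Over all rows, 6.48% were at least 2-fold higher, and 16.8% in the range from 1 to under 5 CPM where both lie. The 2 were IL1A, with 17 and 55 counts (1.53, 95% interval 0.82 to 2.50), and IL1B, with 14 and 56 counts (1.81, 95% interval 1.07 to 2.89), both of which encode ligands of the interleukin-1 receptor. For the interleukin-1 receptor, IL1R1 had 1491 and 1030 counts (−0.60) and IL1RAP had 183 and 337 counts (0.81). IL6 had 305 and 402 counts (0.33), and TNF had 0 counts and 2 counts. IL1A and IL1B lay below 1 CPM in shCON and passed the filter through shUSP12.

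Markers of leukocytes, which also make these ligands, were at a like low level in both libraries. Their sum over 15 genes was 6.48 CPM in shCON and 6.72 CPM in shUSP12, 6 of them were at 0 in both, and the pan-leukocyte marker PTPRC had 0 counts and 2 counts. Of the 15, CD14 (21 and 31 counts) and ITGAM (80 and 58 counts) passed the filter. The 5 endothelial markers summed to 1.03 and 3.28 CPM, and none passed the filter. The 7 fibroblast markers summed to 189 and 122 CPM. COL1A1, with 1911 and 462 counts, carries this difference, as the other 6 summed to 78.9 and 96.6 CPM. Among the 6, LUM (788 and 1103 counts) and DCN (481 and 597 counts) were higher in shUSP12. COL3A1 (69 and 43 counts, −0.73) and PDGFRB (25 and 11 counts, −1.13) were lower. Of the 7, 5 passed the filter, 2 were at least 2-fold lower and 0 at least 2-fold higher, beside 3.01% and 6.48% of all rows. PDGFRB, at 1.43 CPM in shCON and 0.601 CPM in shUSP12, passed the filter through shCON.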

How the data were processed

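RNA-seq was measured in 2 libraries of H1944 cells, grouped by their treatment labels. The methods of the study name a stranded mRNA kit, Seqtk, Hisat2 and StringTie counts of uniquely mapped fragments on GRCh38, whereas the processing notes of the submitters name Trimmomatic, HISAT2 2.0.4 and HTSeq 0.6.0. The strand setting of the counting and the annotation release are not given in the sources used here. The deposited values were whole-number counts per gene, which the authors did not normalise. Lines without a count (91 per table) were left out. Of 58735 Ensembl identifiers, 99.1% were found in GENCODE 44, the source of coordinates and transcript lengths. Further rows (390) carried XLOC identifiers.

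CPM values were computed with the TMM method of edgeR 4.0.16 (R 4.3.3), whose factors were 0.955 for shCON and 1.05 for shUSP12. Log2 ratios were taken after adding 0.1 CPM, which understates low genes; their intervals carry no pseudocount. Intervals were exact Clopper-Pearson ones, and ratios of ratios had exact conditional intervals. Molecular identifiers were not used, so reads may repeat molecules and the intervals hold counting error alone. Python 3.11.15, SciPy 1.17.1, pandas 2.3.3, NumPy 2.4.6, Biopython 1.88 and Matplotlib 3.10.9 were used, and the procedure was tested on simulated data. The 10 ligands, the gene lists and the rule for named genes were chosen with earlier results of these data known. The rule took the ligands, USP12, CCL2, the ligands nearest the filter, the cluster on chromosome 4 and fixed or abundant genes of each list. REL, CXCL10 and CXCL11 were named after their values were seen, as were other genes outside that rule. Alternatives were other scalings, pseudocounts, filters, thresholds and lengths.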

Additional observations from a re-analysis of the deposited data

How the results depend on the processing

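No paired analysis was possible because there was only 1 library in each group, so none could be left out either. The 10 log2 ratios were recomputed under 6 alternatives (4 scalings, 2 pseudocounts). Of the 60 values, none changed sign and 58 stayed within the counting interval; the others were CX3CL1 with a pseudocount of 1 CPM (1.83) and CXCL5 with total counts alone (0.18). Total counts alone moved the median of all rows to 0.12, the summed neutrophil-attracting ligands to 0.37, the rows at least 2-fold lower from 440 to 291, and the share of higher among 2-fold calls from 68.3% to 79.6%; CXCL2 then passed 2-fold (1.08). CCL20 did not reach 2-fold with upper-quartile factors or a pseudocount of 1 CPM, with which 214 rows were lower. At 1.5-fold, 1 ligand (CXCL16) and 1331 rows were lower and 1744 rows higher; at 4-fold, 1 ligand (CX3CL1) and 416 rows were higher and 38 rows lower. Rows higher and lower numbered 3993 and 2447 without a filter, 2713 and 1549 at 0.1 CPM, where 21 ligands passed, and 361 and 168 at 5 CPM, against 947 and 440. The summed log2 ratio of the neutrophil-attracting ligands was 0.77 as a median, 0.37 per length of transcript and 1.15 without CXCL5; that of the other ligands was 0.57 as a median and 0.38 without CXCL16. Their contrast (0.45) was 0.20 from medians, 1.36 without CXCL5, 1.46 without CXCL5 and CX3CL1, and 0.76 without CXCL5 and CXCL16. Without CXCL16 alone its point value changed sign, as the other ligands at 0.38 then exceeded the neutrophil-attracting ligands at 0.24. Their counting intervals overlapped. The settings that left out single ligands and the row counts at other thresholds and pseudocounts were added after seeing the data. Depth limits CXCL6, CCL20 and CX3CL1 most, with 13, 15 and 3 counts in shCON.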
